A study of Mus musculus with 2 samples.

Results

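The genes described here are those of glycolysis, lactate handling, pyruvate entry into mitochondria and the pentose phosphate pathway, together with Hif1a, the oxygen-regulated transcription factor subunit that acts on many of them. They were chosen by name, as the non-control array probes whose gene name is 1 of 36 listed symbols. Of the 36 symbols, 35 had a probe, which is 35 of the 34817 gene names on the array, and these had 55 probes on 64 spots. Of these, 34 were measured: on each array the scanner called the gene's probe of highest mean signal well above background. Pdk4 was below that call on both, and the symbol Pkm2 had no probe of that name.

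Glycolysis splits glucose into pyruvate and yields ATP, and lactate dehydrogenase turns pyruvate into lactate when it is not burned in mitochondria. The pentose phosphate pathway branches off after the first step and supplies NADPH and ribose for nucleotides. Proliferating effector T cells draw heavily on glycolysis, while regulatory T (Treg) cells, the T cells that restrain immune responses, are generally described as leaning more on oxidative metabolism.

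The series compared Treg cells sorted from wild-type mice with those from Nr4a-TKO mice, all 5 weeks old, which were lysed straight after sorting with no other treatment named. Each genotype had 1 array of a 1-colour Agilent mouse design, hybridised with total RNA labelled by Cy3. The labels give neither which parts of which Nr4a genes were altered, nor the promoter of any Cre, the sex or number of the mice, or the markers used to sort. There are no replicates, so no difference below was tested, and each describes this pair of arrays. Levels are log2 signals relative to the 75th percentile of the array, and differences are taken as Nr4a-TKO, by its label, less wild-type.

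The scanner called 66.0% of the wild-type array's probes and 63.9% of the other's well above background, and 0 spots saturated. Among the Nr4a nuclear receptors, Nr4a3 was 7.04-fold lower on the array labelled Nr4a-TKO (3.26-fold with normexp background correction), Nr4a1 differed by 0.06 and Nr4a2 was 2.54-fold higher. The levels of Nr4a1 and Nr4a2 thus go against a loss of those transcripts. The labels do not give the altered parts, and a probe lying elsewhere in the gene is no check of them. The 8 Treg markers were all measured. Foxp3, which encodes the master regulator of this lineage, was 17.2-fold lower on the array labelled Nr4a-TKO (10.3-fold with normexp), and Ikzf2 and Ctla4 were 3.07-fold and 2.29-fold lower. Nrp1 was 3.23-fold higher, and of the other 4 markers 3 were lower and 1 higher, all by less than 1.5-fold. All 7 T cell markers were measured, with a median of -0.52. Summed signals of markers are over all listed markers with a probe, whether measured or not. For granulocytes and mast cells 4 of 7 markers were measured. The summed signal of this list was 2.18 times the array's 75th percentile in wild-type and 3.10 in the other. That sum follows Ly6g, 6.72-fold higher, while the median was -1.25: Mpo and Kit were 7.76-fold and 5.40-fold lower (3.04-fold and 2.73-fold with normexp), and S100a8 and S100a9, well above background in wild-type only, were at least 2.498-fold and 2.89-fold lower. Of 7 erythroid and platelet markers 0 were measured on both arrays and 5 on neither; Hbb-b1 and Hba-a1, seen in wild-type only, were at least 2.88-fold and 1.104-fold lower. Of 5 B cell markers 3 were measured, with summed signals of 0.615 and 1.23. That rise follows Cd79b, 2.51-fold higher on the array labelled Nr4a-TKO (2.25-fold with normexp), while Cd79a and Pax5 differed by 0.11 and 0.30. Ms4a1 was below the background call on both arrays. The summed signals of the macrophage and dendritic cell markers (4 of 7 measured) were 13.7 and 13.5. Those of the CD8 and NK cell markers (3 of 5) were 1.503 and 0.867, with Klrd1 seen in wild-type only and at least 5.97-fold lower. Those of the epithelial and stromal markers (4 of 6) were 1.73 and 1.48. Of the measured epithelial and stromal markers, 3 were below 0 and 1, Krt18, was 2.43-fold higher (1.91-fold with normexp). Col1a1, seen on the array labelled Nr4a-TKO only, was at least 2.16-fold higher. The XIST probe was 380-fold higher on the array labelled Nr4a-TKO (160-fold with normexp and 679-fold by the mean over probes). The Y-linked Ddx3y, Eif2s3y and Uty were 3.63-fold, 1.97-fold and 1.52-fold lower (Uty 1.12-fold with normexp). Each of them stayed well above background on both arrays. Kdm5d, also Y-linked, was seen in wild-type only and was at least 1.78-fold lower. Sex-linked differences and genotype thus cannot be told apart, and the sex of the cells on each array was not tested. The part of cell makeup and sex in the results below was not tested, and in bulk RNA fewer cells of a type cannot be told apart from less RNA per cell.

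Most of the pathway was slightly higher on the array labelled Nr4a-TKO, though only 18 of 34 members with spike-in centring, and the widest differences were in 2 enolase isoforms and a pyruvate dehydrogenase kinase. The median difference over the 34 measured members was 0.31, against 0.08 over all 23415 measured gene names. Of the 34, 29 were above 0 (85.3%) and 5 below, whereas 59.6% of all measured names were above 0. Only Eno2, the enolase known from neurons, was at least 2-fold higher (2.94% of members, against 3.15% of all measured names). Eno3, the enolase known from muscle, and Pdk2, a kinase that switches off pyruvate dehydrogenase, were at least 2-fold lower (5.88% of members, against 3.06%). At 1.5-fold, 4 members were higher (11.8%, against 8.37% of all names) and the same 2 were lower (5.88%, against 7.37%). The other 28 lay between. The counts past 2-fold and 1.5-fold were thus near those of all names, and the members' median was further from 0.

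**Figure D1:**
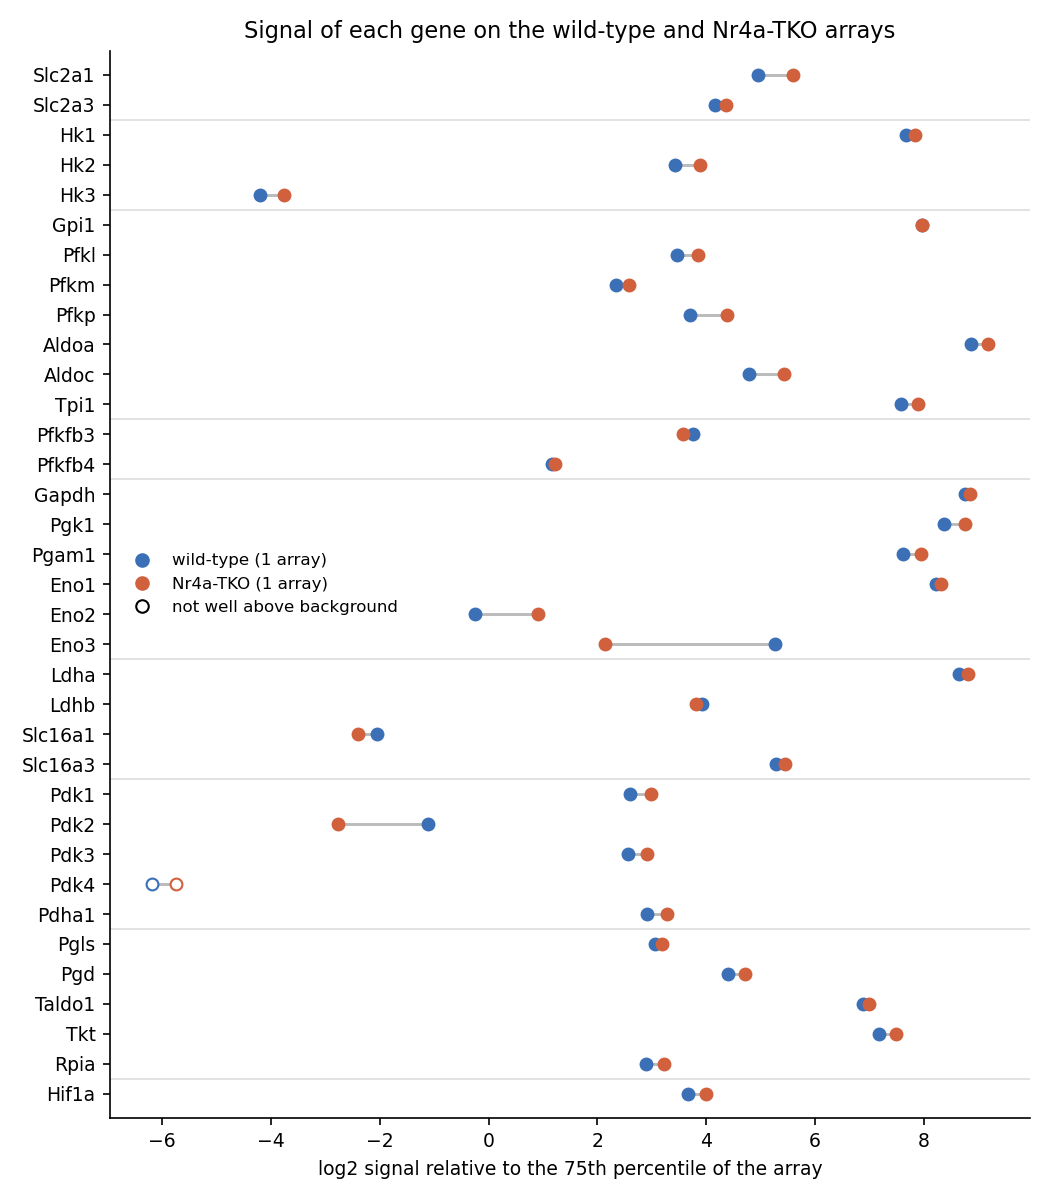
Log2 signal relative to the 75th percentile of the array (horizontal axis) for each gene with a probe, grouped by role, on the wild-type (blue) and Nr4a-TKO (orange) arrays; each point is 1 array and open points were not well above background. Eno3 (5.26 and 2.14) and Pdk2 (-1.11 and -2.78) have the widest gaps, Eno2 the widest of those that are higher on the array labelled Nr4a-TKO, and most other pairs lie close together.

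The members' median has to be read beside signal and scaling. Among names with a mean log2 signal of 6 or more, 88.7% of all 1485 names were above 0, with a median of 0.18 and the central 50% of names between 0.08 and 0.29; the 11 members there were all above 0 with a median of 0.17, close to that of all names. Between 3 and 6 the 15 members had a median of 0.32 and all 4103 names 0.13. Between 0 and 3 the 5 members had a median of 0.36 and all 5535 names 0.06. Below 0 the 3 members had a median of -0.34. With both arrays centred on the 9 probes for spike-in RNAs, which were themselves 0.27 higher on the array labelled Nr4a-TKO, the members' median was 0.04 with 18 above 0 and 16 below, and all names had a median of -0.20. After quantile normalization the members' median was 0.16, after centring on housekeeping genes 0.19 and after a loess fit on signal 0.13, while that of all names was 0.02, -0.04 and 0.01. Centring on spike-ins or housekeeping genes shifts every name by the same amount. The gap between the members' median and that of all names, 0.23 in the main setting, therefore cannot change with it. That gap was 0.14 after quantile normalization and 0.12 after loess. The sign of small single differences was not kept. It turned in at least 1 alternative setting for 11 members, which are Slc2a3, Hk1, Gpi1, Pfkm, Pfkfb4, Gapdh, Eno1, Ldha, Slc16a3, Pgls and Taldo1.

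A difference between single spots of a probe had an SD of 0.080, from 262 probes with at least 5 spots. Of the 34 members, 32 differed by more than that. This SD comes from spots within each array, so it leaves out variation between mice, labelling, hybridisation and scaling. The spike-in probes ranged from -0.01 to 0.32, and 13 members lay within that range, 16 above it and 5 below it. Different probes of a gene differed by a median of 0.25 over 6790 genes with several measured probes, with a 95th percentile of 1.16. The difference of Eno2, which had 1 probe, was also 1.16. Of the members, 11 had several measured probes, and in all 11 these pointed in 1 direction.

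**Figure D2:**
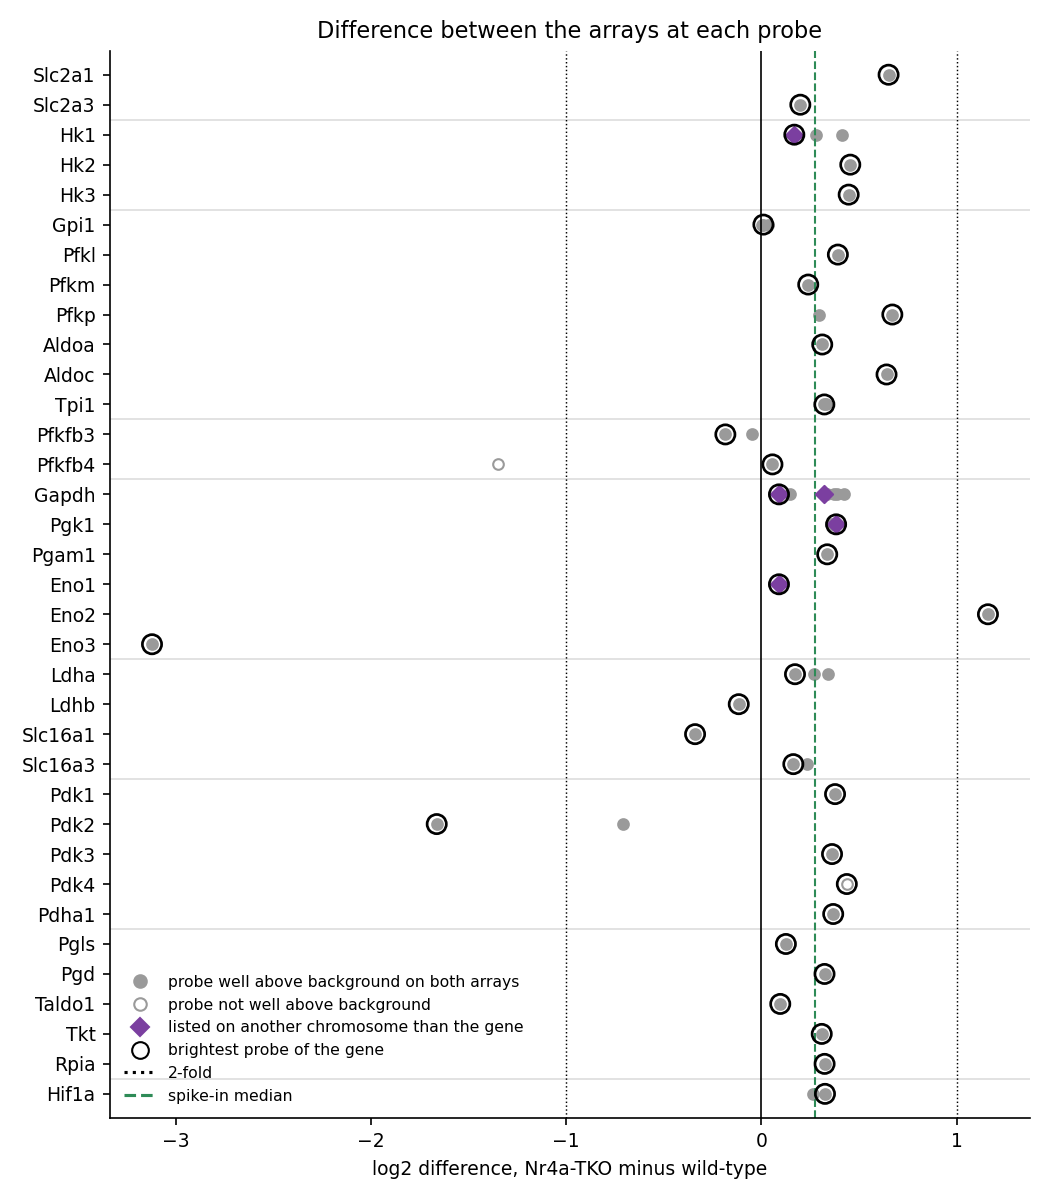
Log2 difference, Nr4a-TKO minus wild-type (horizontal axis), at each of the 55 probes, with the brightest probe of a gene ringed, probes listed on another chromosome than the gene in purple, 2-fold as dotted lines and the spike-in median as a dashed line. Most ringed points crowd between 0 and 0.5, Eno3 and Pdk2 lie past the lower 2-fold line and Eno2 past the upper.

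The probes for the 3 enolase isoforms and for Pdk2 are shown. The first 30 of each probe's 60 bases are given, from the deposited files. The 3 enolase probes share no run longer than 7 bases (Eno1 with Eno3, and 5 for the other pairs). They were compared with each other and not with transcripts, so which transcripts each probe reads was not tested. The Eno3 probe lies at chr11:70475953-70476012 on the plus strand and the Eno2 probe at chr6:124710388-124710447 on the minus strand, on mm9. The only Eno1 probe is listed on chromosome 2, although RefSeq places Eno1 on chromosome 4. The Pdk2 probes lie at chr11:94887669-94887728, the brighter, and chr11:94887980-94888039, both on the minus strand of mm9.
Eno1 probe: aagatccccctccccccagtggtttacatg
Eno2 probe: ccacagttgccaccatctccgtggctttga
Eno3 probe: ctttcacaggaaagacacaggccttcaagc
Pdk2 brighter probe: acaagtgactcacccctaggacagccctat
Pdk2 other probe: agagggagtgggggaagatagggtccaccc

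The promoter windows of the 6 members past 1.5-fold are given from RefSeq (GRCm38.p6), 300 bases each, from 250 bases before to 50 after the annotated start, read in the direction of the gene. They are shown because these members have the largest differences in each direction. Capitals mark matches to the hypoxia response cores ACGTG and GCGTG, the E-box CACGTG, which contains ACGTG, and the Nr4a element AAAGGTCA, searched on both strands. Windows lie at chr4:119108495-119108794 (plus strand), chr13:6648722-6649021 (minus), chr11:78322823-78323122 (plus, the first of 2 windows of that gene), chr6:124769624-124769923 (minus), chr11:70656926-70657225 (plus) and chr11:95041322-95041621 (minus, also the first of 2).
Slc2a1 promoter: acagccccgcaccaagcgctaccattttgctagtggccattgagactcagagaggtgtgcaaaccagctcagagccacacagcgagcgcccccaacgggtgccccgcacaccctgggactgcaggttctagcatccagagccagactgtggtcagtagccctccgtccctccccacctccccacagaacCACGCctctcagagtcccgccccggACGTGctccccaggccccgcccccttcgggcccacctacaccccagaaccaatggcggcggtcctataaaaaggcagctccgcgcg
Pfkp promoter: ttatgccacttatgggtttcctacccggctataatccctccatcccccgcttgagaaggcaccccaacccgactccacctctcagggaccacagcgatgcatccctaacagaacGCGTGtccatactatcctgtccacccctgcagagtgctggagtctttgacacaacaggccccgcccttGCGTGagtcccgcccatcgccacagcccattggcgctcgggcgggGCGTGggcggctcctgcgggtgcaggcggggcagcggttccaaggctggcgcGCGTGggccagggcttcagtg
Aldoc promoter: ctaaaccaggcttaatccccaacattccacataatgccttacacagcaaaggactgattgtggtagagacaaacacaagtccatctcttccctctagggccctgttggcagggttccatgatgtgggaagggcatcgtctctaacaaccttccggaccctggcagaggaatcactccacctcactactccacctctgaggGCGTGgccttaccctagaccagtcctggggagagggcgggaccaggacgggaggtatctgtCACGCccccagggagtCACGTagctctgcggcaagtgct
Eno2 promoter: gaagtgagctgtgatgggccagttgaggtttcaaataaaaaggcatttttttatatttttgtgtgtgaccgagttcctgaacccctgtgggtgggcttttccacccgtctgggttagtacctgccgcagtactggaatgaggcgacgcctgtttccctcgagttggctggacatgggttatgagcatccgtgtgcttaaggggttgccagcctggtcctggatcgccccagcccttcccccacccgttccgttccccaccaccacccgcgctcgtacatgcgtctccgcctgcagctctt
Eno3 promoter: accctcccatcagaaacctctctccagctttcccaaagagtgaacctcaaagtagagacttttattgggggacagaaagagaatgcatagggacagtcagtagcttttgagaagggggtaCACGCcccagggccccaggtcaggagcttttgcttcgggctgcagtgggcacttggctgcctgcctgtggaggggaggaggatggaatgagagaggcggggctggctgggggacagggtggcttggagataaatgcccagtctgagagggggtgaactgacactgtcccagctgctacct
Pdk2 promoter: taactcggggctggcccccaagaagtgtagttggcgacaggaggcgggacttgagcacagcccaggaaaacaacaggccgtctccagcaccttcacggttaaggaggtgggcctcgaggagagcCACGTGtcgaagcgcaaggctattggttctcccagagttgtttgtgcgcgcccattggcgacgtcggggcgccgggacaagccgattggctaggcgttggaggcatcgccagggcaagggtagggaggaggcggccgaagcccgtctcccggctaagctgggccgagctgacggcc
The Slc2a1 window holds 1 ACGTG and 1 GCGTG, the Pfkp window 4 GCGTG, the Aldoc window 1 ACGTG and 2 GCGTG, the Eno3 window 1 GCGTG, the Pdk2 window an E-box, which gives ACGTG on both strands, and the Eno2 window none of the 4 motifs. Of 34 members with a window (Slc2a3 and Pkm2 had none), 29 (85.3%) held at least 1 hypoxia core, against 43.8% of all 32851 windows. By motif, 15 members held ACGTG (19.6% of all windows), 21 held GCGTG (32.4%), 5 held CACGTG (7.15%) and 1, Eno1, held AAAGGTCA (1.51%). The windows were not matched on base composition, and a match is a description of letters. A hypoxia core is held by 3 of the 4 members at least 1.5-fold higher and by both of those lower.

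Glucose uptake came first in the pathway, and its main carrier was among the 4 members at least 1.5-fold higher. Slc2a1, the widely used glucose transporter GLUT1 (probe at chr4:118809864-118809923, mm9), was at 4.95 in wild-type and 5.60 on the array labelled Nr4a-TKO, a difference of 0.65 (1.57-fold). Over 10 alternative settings it ranged from 0.38 to 0.70 and was past 1.5-fold in 6. Slc2a3, the high-affinity transporter GLUT3, was at 4.17 and 4.37, a difference of 0.20. The hexokinases, which trap glucose as glucose phosphate, gave 0.46 for Hk2 (3.42 and 3.88) and 0.45 for Hk3 (-4.20 and -3.76). Hk1, at 7.67 and 7.84 by its brightest probe, differed by 0.17. That probe is listed on chromosome 5, while the gene lies on chromosome 10 in RefSeq, and its 2 probes on chromosome 10 gave 0.41 and 0.28. All hexokinase probes were higher on the array labelled Nr4a-TKO and none reached 1.5-fold; with other scalings the sign of Hk1 turned.

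The upper part of glycolysis, which spends ATP and splits the sugar, had 7 of 7 members above 0 and a median of 0.32. However, Gpi1 was below 0 in 7 of 10 alternative settings, and Pfkm in 1, with spike-in centring. Phosphofructokinase, the committed step, is built from 3 isoforms. Pfkp, the platelet type, was at 3.70 and 4.37, a difference of 0.67 (1.59-fold) by its brighter probe (chr13:6581718-6583872, mm9, a span longer than the probe) and 0.30 by the other. Pfkl, the liver type, was at 3.46 and 3.85, 0.39, and Pfkm, the muscle type, at 2.34 and 2.58, 0.24, over 10 spots. Among aldolases, which cleave the sugar, Aldoc was at 4.79 and 5.44, 0.64 (1.56-fold), and Aldoa at 8.87 and 9.18, 0.31. Tpi1, triose phosphate isomerase, gave 0.32 and 0.33 by its 2 probes, and Gpi1, glucose phosphate isomerase, at 7.96 and 7.97, 0.01. Pfkp and Aldoc were past 1.5-fold in 5 of the 10 alternative settings, the least being 0.40 and 0.37. Pfkfb3 and Pfkfb4 make the sugar phosphate that activates phosphofructokinase: Pfkfb3 was -0.18 (3.75 and 3.57) and -0.05 by its other probe, and Pfkfb4 0.06 (1.16 and 1.22). The other Pfkfb4 probe, which was not well above background on both arrays, gave -1.35, and the mean over the Pfkfb4 probes was -0.65.

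In lower glycolysis, which makes ATP, the enolase isoforms parted. Eno3 was at 5.26 in wild-type and 2.14 on the other array, 8.70-fold lower (-3.12), and it had 1 probe on 1 spot. Eno2 was at -0.24 and 0.92, 2.24-fold higher (1.16). Eno1, the ubiquitous enolase, was at 8.23 and 8.32 by its only probe, 0.09. Over the 10 alternative settings Eno3 ranged from -3.40 to -3.12 and Eno2 from 0.89 to 1.16, which is under 2-fold with spike-in centring (1.85-fold). Foxp3 was lower on the same array by a larger factor, as given above, and a link between it and Eno3 was not tested.

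The other lower steps were close together. Pgk1, phosphoglycerate kinase, gave 0.38 by its brighter probe (8.38 and 8.76), which is listed on chromosome 3, and 0.36 by the probe on the X chromosome, where RefSeq places it. Pgam1, phosphoglycerate mutase, gave 0.34 (7.61 and 7.95). Gapdh, the dehydrogenase often used as a control gene, had 7 probes. They ranged from 0.09 to 0.42; the brightest, at 8.75 and 8.84, is listed on the X chromosome and another on chromosome 8, and the 5 probes on chromosome 6 gave 0.15 to 0.42. Among members with several measured probes, the brightest gave the smallest difference in size for Gapdh, Ldha, Hk1, Slc16a3 and Tpi1. It gave the largest for Pfkp, Pdk2, Pgk1, Hif1a and Pfkfb3, and for Gpi1 it lay between. Pyruvate kinase under its present name Pkm, which lists Pkm2 as a synonym and is not a listed symbol, was at 7.40 on both arrays, a difference of 0.00.

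Lactate handling had no common direction. Ldha, the subunit that favours lactate production, was at 8.64 and 8.82, 0.17, with probes up to 0.34, and Ldhb, its counterpart, at 3.93 and 3.81, -0.12. Of the lactate carriers, Slc16a1 was at -2.05 and -2.39, -0.34, and Slc16a3, the exporter of glycolytic cells, at 5.28 and 5.44, 0.16. The median of the 4 was 0.02 and turned sign in 5 of 9 settings.

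Pyruvate dehydrogenase feeds pyruvate into the tricarboxylic acid cycle, and its kinases switch it off. Pdk2 was lower by both probes, at -1.11 and -2.78 (3.17-fold, -1.66) and at -1.88 and -2.59 (1.64-fold, -0.71), and its range over the 10 alternative settings, -1.94 to -1.14, stayed past 2-fold. The other kinases went the other way by small amounts: Pdk1 0.38 (2.61 and 2.98) and Pdk3 0.36 (2.56 and 2.92). Pdha1, the enzyme's catalytic subunit, gave 0.37 (2.91 and 3.28). Pdk4 was at -6.19 and -5.75, below the background call on both arrays, so no fold is given.

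The 5 measured pentose phosphate members were all above 0 with a median of 0.31. However, Taldo1 was below 0 in 4 of 10 alternative settings, and Pgls in 1, with spike-in centring. Pgd, an NADPH-making dehydrogenase, gave 0.32 (4.40 and 4.72), and Pgls, the lactonase before it, 0.13 (3.06 and 3.18). In the non-oxidative branch, Tkt gave 0.31 (7.18 and 7.49), Rpia 0.32 (2.89 and 3.22) and Taldo1 0.10 (6.89 and 6.99). None reached 1.5-fold. Hif1a was at 3.67 and 3.9995, 0.33, with 0.26 by its other probe. Of the members, Pgk1, Pdk3 and Pdha1 are X-linked; the 871 measured X-linked names had a median of 0.09, and without X-linked names the members' median was 0.24.

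**Figure D3:**
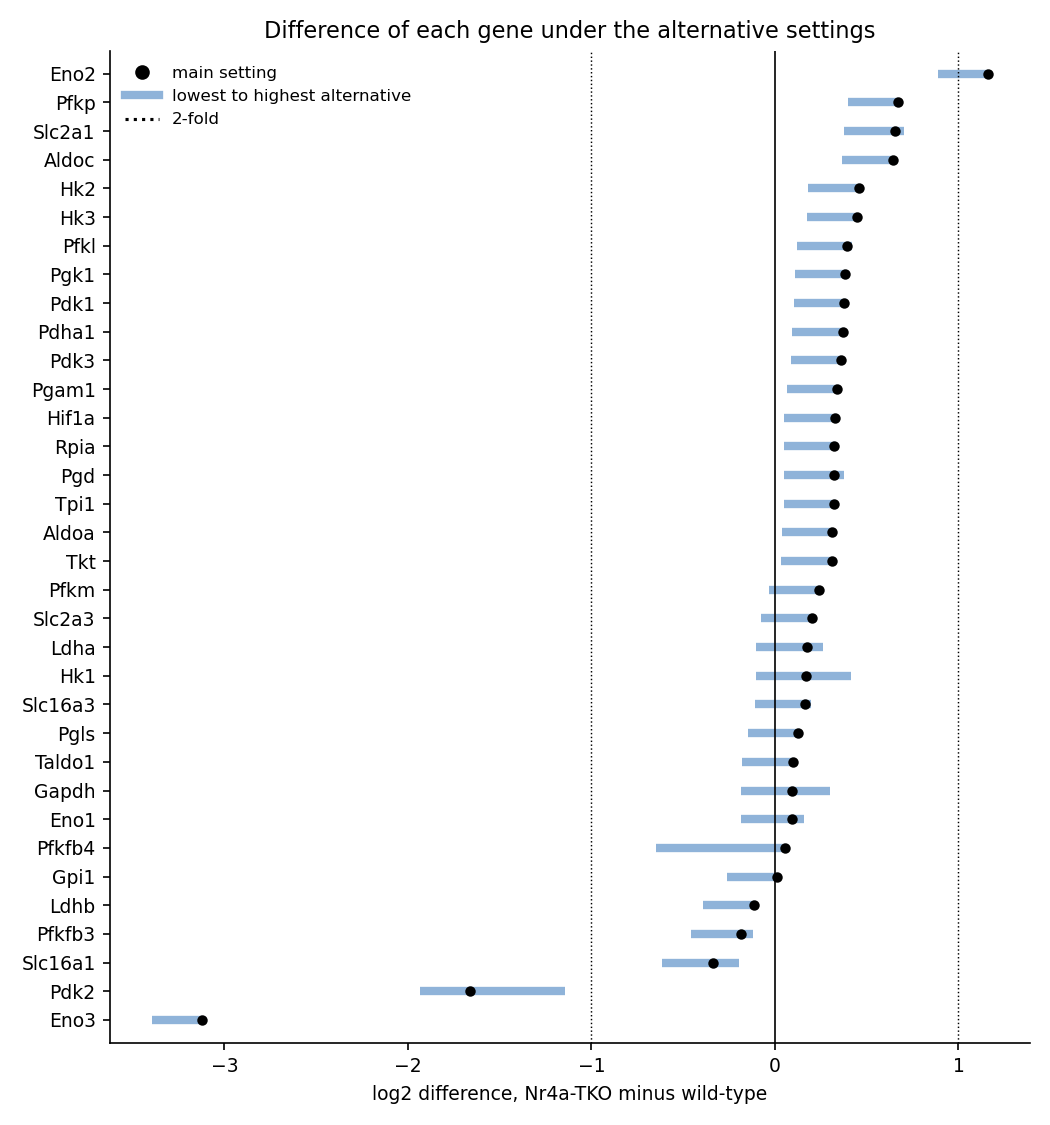
Log2 difference of each measured gene (horizontal axis) in the main setting (points) and its lowest and highest value over the alternative settings (bars), ordered by the main value; dotted lines mark 2-fold. Eno3 and Pdk2 stay past the lower line over their whole bars, Eno2 crosses the upper line at its lowest, and the bars of 11 genes reach the other side of 0.

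The rest of these pathways, from lists of genes not among the members, was described by counts. The 27 measured other genes of glycolysis and glucose transport had a median of 0.22, and 0 of them reached 2-fold either way. Among the furthest were Ldhd, a mitochondrial lactate dehydrogenase, at 0.68 and -0.30 (1.97-fold lower, past 2-fold in 4 of 9 alternative settings), Pck2, mitochondrial phosphoenolpyruvate carboxykinase, 1.93-fold higher, and Bsg, the chaperone of the lactate carriers, 1.55-fold higher. Of 11 genes of pyruvate entry 0 reached 2-fold, with a median of 0.19; Pcx, pyruvate carboxylase, was 1.52-fold higher. Of 10 other pentose phosphate genes 0 reached 2-fold, with a median of 0.28 (0.0029 with spike-in centring). In that list G6pdx, the first and rate-limiting enzyme, which is X-linked, was at 4.38 and 4.96 (1.49-fold higher), and Rbks, ribokinase, 1.99-fold lower, which was past 2-fold in 7 of 9 alternative settings. The tricarboxylic acid cycle had 19 of 20 above 0 (95%, against 59.6% of all measured names), a median of 0.23 and 0 past 2-fold. Its median was 0.06 after quantile normalization and 0.06 after loess. Most of this list had a mean log2 signal of 3 or more. Of all names, 68.9% were above 0 between 3 and 6, and 88.7% at 6 or more. Idh1 was at 0.59 and Cs, citrate synthase, at 0.52. With spike-in centring the medians of other glycolysis, pyruvate entry and the cycle were -0.06, -0.09 and -0.05.

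A branch leaves glycolysis for serine and glycine, and its enzymes were listed too. Of 12 measured, 9 were above 0 (75%, against 59.6% of all measured names). The median was 0.41 (0.13 with spike-in centring and 0.23 after quantile normalization). Of the 12, 1 was at least 2-fold higher (8.33%, against 3.15% of all names): Psph, the last step to serine (2.06-fold). Psat1, the step before it, was at 5.41 and 6.40 (1.98-fold), and the mitochondrial one-carbon enzymes Mthfd2 and Shmt2 were 1.68-fold and 1.62-fold higher. Psph was past 2-fold in 4 of 9 alternative settings.

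Hypoxia-inducible factor acts on many glycolytic genes, and its regulators and other targets were also listed. The 16 measured targets outside glycolysis had a median of 1.0017. Of them, 8 were past 2-fold upward (50%, against 3.15% of all measured names, and 5 to 8 over the alternative settings) and 0 downward. Adm, a secreted peptide, was at -1.97 and 0.10 (4.21-fold higher; 3.35-fold with normexp), P4ha2, a collagen hydroxylase, 3.48-fold and Ero1l, an oxidase of protein folding, 2.71-fold. Car9, measured on the wild-type array only, was at least 4.04-fold lower. Among 12 measured regulators the median was 0.20 (-0.08 with spike-in centring), and Egln3, the oxygen sensor that is itself a target, was at 2.91 and 5.40 (5.61-fold higher in the main setting, past 2-fold in all 9 alternatives). These lists were chosen with results of these data known, so their counts are a description only.

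Proliferation genes, listed because growth and glycolysis often go together, had 23 of 25 above 0 (92%, against 59.6% of all measured names). Their median was 0.53 (0.25 with spike-in centring), and 8 were at least 2-fold higher (32%, against 3.15% of all names, and 3 to 8 over the alternative settings). The summed signal was 1154 in wild-type and 1497 on the other array. Furthest were the mitosis genes Ccnb1, Ccnb2, Cdc20 and Aurka, 2.88-fold, 2.58-fold, 2.46-fold and 2.32-fold higher. Of the replication genes, Pcna, Mcm2, Mcm5 and Mcm6 were at 0.01, 0.12, 0.16 and 0.17, and Rrm2 and Tk1 at 0.47 and 0.43. Tyms was at -0.26 and Mcm3 at -0.33 (0.61 by another probe). The part of proliferation in the members' values was not tested. The 15 housekeeping genes had a median of 0.12 with 0 past 2-fold, and that median turned sign in 3 of 9 settings.

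**Figure D4:**
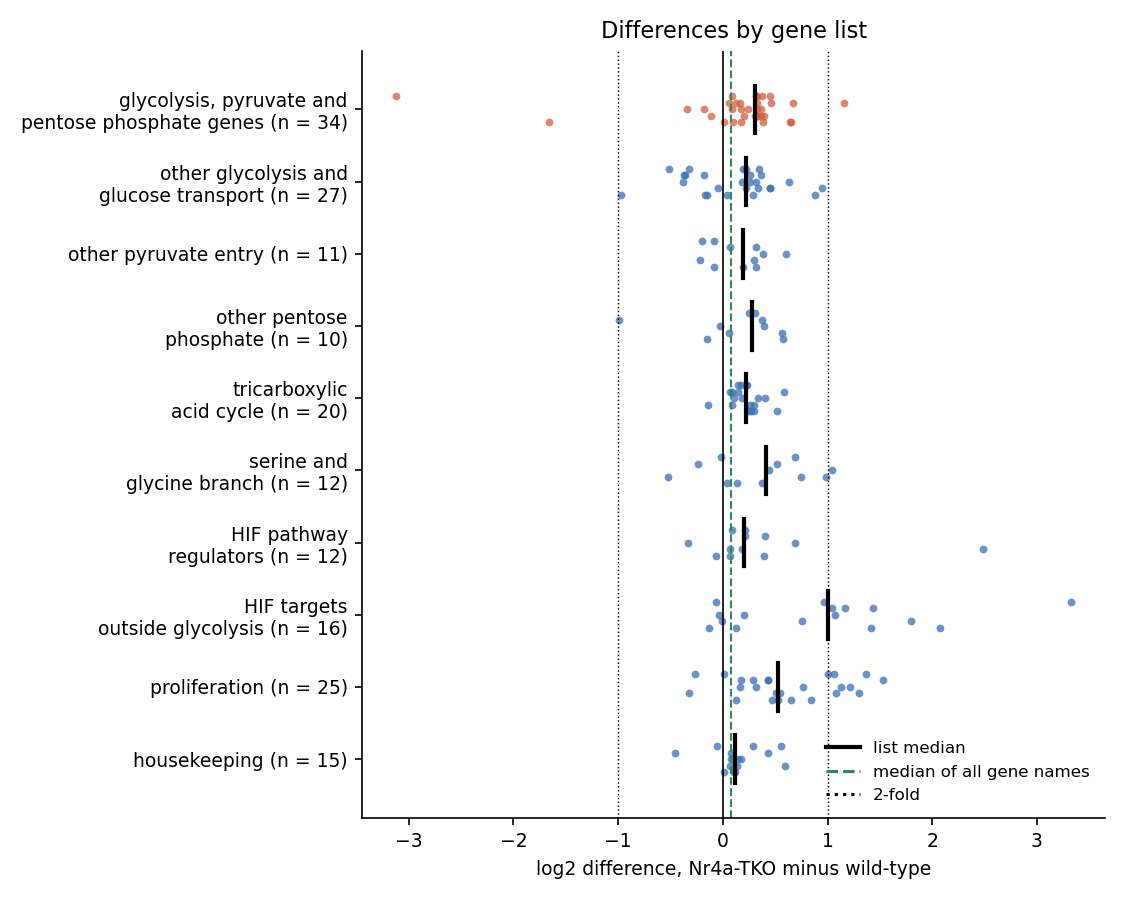
Log2 difference, Nr4a-TKO minus wild-type (horizontal axis), of each measured gene (points, spread vertically to be seen) for the glycolysis, pyruvate and pentose phosphate genes (orange) and 9 other lists (blue), with list medians as black bars. The orange median is 0.31, the other metabolic lists have medians between 0.19 and 0.41, and the hypoxia-inducible factor targets outside glycolysis have the highest median of those drawn.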

How the data were processed

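Treg cell RNA of 1 wild-type and 1 Nr4a-TKO sample was measured, grouped by the genotype in the labels. Spot intensities deposited by the authors came from Agilent Feature Extraction 10.10.1.1 on an mm9-annotated design, per the file headers. A deposited log2 table of the same probes equals the log2 processed signal less a constant per array (SD about it 0.00029); its direction and centring are those of the scanner values, its column medians are -3.54 and -3.53, and the exact rule for the constant stays unknown.

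Each array held 62976 spots. Controls (3671) and outlier spots (156 and 117) were left out. Processed signals were put on the log2 scale and averaged per probe, and the 75th percentile of the 55676 probes was subtracted on each array. The probe of highest mean signal stood for its gene, which counted as measured if the scanner called it well above background on each array. A gene so on 1 array only was given as a lower bound: its value on that array over the higher of its own signal on the other array and the lowest signal well above background there. Sizes of 1.5-fold and 2-fold were counted, with no test, since 1 array per genotype limits the precision. Gene names are those of the array; 35 of 36 listed symbols matched RefSeq.

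All members could be named, and in other lists up to 4 with the largest difference among measured genes; some genes that this rule takes are left out of the text. Members and lists were chosen with earlier results of these data known. The Nr4a receptors, Ms4a1, the named replication genes and the genes given as lower bounds fall outside the naming rule and were chosen after their values were seen. Alternatives were normexp (offset 50), 6 other scalings including loess (span 0.3), the deposited table, the mean over probes, the filter on dim probes dropped or made stricter, and X-linked names left out. The counting was tested on simulated data. Software was R 4.3.3 (limma 3.58.1) and Python 3.11.15 (numpy 2.4.6, pandas 2.3.3, scipy 1.17.1, statsmodels 0.14.6, matplotlib 3.10.9).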

Additional observations from a re-analysis of the deposited data

How the results depend on the processing

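The counts of members at least 2-fold lower and higher, and at least 1.5-fold higher and lower, moved by no more than 1.5 times except as given here. Members at least 1.5-fold higher numbered 1 after quantile normalization, spike-in centring, housekeeping centring and loess, and members at least 2-fold higher numbered 0 with spike-in centring. With the stricter filter 1 member was at least 2-fold lower and 1 at least 1.5-fold lower, since Pdk2 is too dim for it. The members' median was 0.157 after quantile normalization, 0.0363 with spike-in centring, 0.193 with housekeeping centring and 0.128 after loess, and 0.24 without X-linked names. Over all genes, the names past 1.5-fold upward and downward numbered 1299 and 1148 with normexp, 984 and 3768 with spike-in centring, 4308 and 3854 with no filter, and 921 and 859 with the stricter filter, against 1959 and 1725. Spike-in centring moved the median of all names by -0.27 and housekeeping centring by -0.12. The cause of these moves was not tested, apart from the number of genes that a filter leaves in. Taking only probes on the gene's RefSeq chromosome, an alternative chosen after seeing the data, gave a median of 0.32 over 33 members and the same counts. No paired analysis was possible because each genotype has 1 array and no shared replicate number, and for the same reason no array could be left out.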

Other observations

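Among 15 measured regulators of glycolysis other than the hypoxia pathway, the median was -0.11. Mycn, a growth-driving transcription factor, was at -4.10 and -2.94 (2.25-fold higher; 1.52-fold with normexp), and Tfeb, a regulator of lysosome genes, was at -0.73 and -1.45 (1.65-fold lower). Mlxipl, a glucose-sensing factor, was -0.59 by its brightest probe and 0.20 by another.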
